A study of Mus musculus with 18 samples.

Results

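The ac4C peaks that the authors' lists place around a stop codon are described here for the hippocampus of 5×FAD and WT mice. The lists give each peak 1 of 5 positions on an mRNA (5′ untranslated region, start codon, coding sequence, stop codon, 3′ untranslated region), and the 3455 peaks with the stop codon position were taken from 24703 listed peaks. Stop codon peaks from any of the 6 samples were joined wherever they shared 1 bp or more, which gave 1324 regions on 1275 named mRNAs, of 9429 regions when the peaks of every position were merged in the same way within their position. The tissue was hippocampus, collected at 3 months of age, with 3 5×FAD and 3 WT samples. The 5×FAD mice carry human APP with the Swedish, Florida and London mutations and a second human transgene with familial mutations, on the C57BL/6J background, and the murine Thy-1 promoter drives the APP transgene in neurons. WT mice were littermates without the transgenes, and the sources do not settle the sex of the animals or whether tissue was pooled. Nothing in the lists ties a replicate number to a named animal, so the p-values given here measure the spread between these samples.

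N4-acetylcytidine (ac4C) is a cytidine with an acetyl group on its base, and NAT10 is the enzyme known to write it in eukaryotic RNA. The stop codon ends translation: the release factor eRF1 reads it in the ribosome, and eRF3 helps to free the finished protein. The sequence just before the stop codon encodes the end of the protein, and the sequence after it opens the 3′ untranslated region, where stability and localisation of mRNAs are often controlled. In acRIP-seq an antibody against ac4C pulls down RNA fragments, and a peak marks a stretch of mRNA that is enriched, not a single modified base.

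The following coding ends belong to the mRNAs with the largest log2 difference in each direction among regions of both genotypes, and with the highest mean FE among regions of 1 genotype alone. They show the stop codon of each mRNA and are not the sequence of the peak. The regions of Tmem37, Ccl7, Pvrl2, Crtap and Emd lie wholly past the stop codon. Those of Ints5 and Olfr472 lie wholly before the printed bases. Each shows the last 60 coding bases of the mRNA, spliced and read 5′ to 3′ from the GRCm38 genome of RefSeq, with the stop codon in capitals. The coding end of Emd is that of an Ensembl transcript. Gm20783 and Atp6v0c were passed over because their peaks lay away from any annotated stop codon. Tmem37, Ccl7 and S100a10 had far stronger peaks in 5×FAD than in WT.
Tmem37 (chr1:120067710-120067769, minus strand): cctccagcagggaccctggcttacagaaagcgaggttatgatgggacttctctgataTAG
Ccl7 (chr11:82047031-82047090, plus strand): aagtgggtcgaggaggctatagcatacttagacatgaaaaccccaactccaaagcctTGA
S100a10 (chr3:93564345-93564404, plus strand): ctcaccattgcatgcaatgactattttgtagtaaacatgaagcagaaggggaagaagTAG
Spry1, Mcm3ap and Ints5 had far weaker peaks in 5×FAD than in WT.
Spry1 (chr3:37643492-37643551, plus strand): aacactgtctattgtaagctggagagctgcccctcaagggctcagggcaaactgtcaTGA
Mcm3ap (chr10:76515681-76515740, plus strand): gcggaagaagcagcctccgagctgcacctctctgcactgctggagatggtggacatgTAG
Ints5 (chr19:8897676-8897735, plus strand): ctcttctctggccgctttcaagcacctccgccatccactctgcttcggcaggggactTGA
Pvrl2, Klhl30 and Olfr472 had a stop codon peak in each 5×FAD sample and in no WT sample.
Pvrl2 (chr7:19717515-19717574, minus strand): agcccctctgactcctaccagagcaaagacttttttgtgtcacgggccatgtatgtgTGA
Klhl30 (chr1:91361207-91361266, plus strand): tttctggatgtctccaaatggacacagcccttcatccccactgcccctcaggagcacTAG
Olfr472 (chr7:107903592-107903651, plus strand): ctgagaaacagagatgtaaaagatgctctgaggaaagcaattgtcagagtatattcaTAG
Crtap, Cenpt and Emd had a stop codon peak in each WT sample and in no 5×FAD sample.
Crtap (chr9:114375529-114378045, minus strand, over 2 exons): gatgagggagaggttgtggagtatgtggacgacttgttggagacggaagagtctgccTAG
Cenpt (chr8:105844872-105844931, minus strand): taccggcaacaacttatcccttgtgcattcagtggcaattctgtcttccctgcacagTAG
Emd (chrX:74256893-74260809, plus strand, over 2 exons): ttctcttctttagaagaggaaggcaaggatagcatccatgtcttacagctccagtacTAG
The set was picked by these values and does not describe stop codon use over all regions, which is given below.

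The 6 lists hold 3734 to 4558 peaks each and no read counts, so the depth is unknown and counting error could not be put on any value. The fold enrichment (FE) of a peak is the authors' ratio of acRIP signal, less the IgG control, over input, and it was not scaled between samples. A sample with no listed peak in a region was given an FE of 0, which says that no peak was listed and not that no ac4C was there. The FDR column is in percent and was at least 20.2% for every stop codon peak, while the methods name a threshold of 5%. It stood at 100% for 25.6% ± 0.687 of the stop codon peaks of 5×FAD samples and 21.9% ± 0.856 of those of WT samples (SD, n = 3 each). As the lists hold peaks and no expression levels, markers of the tissue can only be read as which marker mRNAs carry a peak.

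The numbers of stop codon peaks were close in both genotypes. The 5×FAD lists held 564, 551 and 571 stop codon peaks, against 558, 616 and 595 in the WT lists. The ranges overlapped, and the means of 562 ± 10.1 in 5×FAD and 590 ± 29.4 in WT (SD, n = 3 each) did not differ beyond the spread of the samples (two-sided exact permutation test, p = 0.3). As a share of all listed peaks, stop codon peaks made up 14.4%, 14.8% and 14.7% in 5×FAD samples and 13.4%, 13.5% and 13.3% in WT samples. Each 5×FAD share lay above each WT share, with a difference of 1.18 percentage points, and p was 0.1 (exact permutation test), the smallest that 3 samples against 3 can give. Coding sequence peaks numbered 2186 to 2280 in 5×FAD lists, against 2497 to 2732 in WT lists. Peaks of the 3′ untranslated region numbered 544 to 577 in 5×FAD lists and 543 to 584 in WT lists. The full 5×FAD lists were shorter, at 3734 to 3921 peaks against 4151 to 4558 in WT. The share of 3′ untranslated region peaks was therefore higher in 5×FAD too, and the higher share was not particular to stop codon peaks. In all, 6 values per sample were compared between genotypes in this way, and the adjusted p was 0.3 or more for each of the 6 (Benjamini-Hochberg, exact permutation tests).

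**Figure D1:**
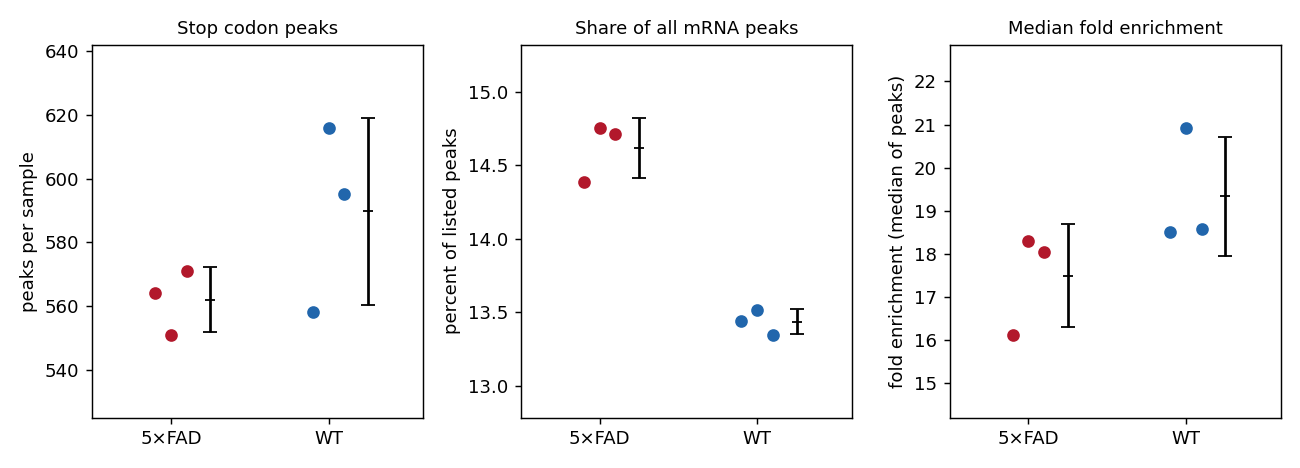
Each point is 1 sample, with 5×FAD in red and WT in blue, and bars are the mean and SD of 3 samples. The panels give the number of stop codon peaks, their share of all listed peaks in percent, and the median FE of the stop codon peaks. The share of 14.4% to 14.8% in 5×FAD lies above the 13.3% to 13.5% in WT, and the axes do not start at 0.

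The median FE of stop codon peaks was lower in each 5×FAD sample than in each WT sample, a difference that did not pass the test (adjusted p = 0.3 by the exact permutation test). It was 16.1, 18.3 and 18.1 in 5×FAD samples, against 18.5, 20.9 and 18.6 in WT samples. The groups did not overlap, but 5×FAD replicate 2 at 18.3 and WT replicate 1 at 18.5 lay close together (two-sided exact permutation test, p = 0.1). The difference of -1.84 ranged over -2.25 to -1.05 with any 1 sample left out, and was -1.05 without WT replicate 2 and -1.16 without 5×FAD replicate 1. The upper quartile showed a wider gap, at 54.7 ± 4.35 in 5×FAD and 68.4 ± 2.07 in WT (SD, n = 3 each). An FE above 100 was listed for 89, 98 and 103 stop codon peaks of 5×FAD samples, against 105, 117 and 117 of WT samples. Single peaks could be very strong in 1 sample alone. The zinc finger gene Zbtb7b reached an FE of 4284 in 5×FAD replicate 3 with no listed peak in the other 5×FAD samples, and 0, 16.0 and 24.4 in WT samples. Kcnk3, a two-pore potassium channel gene, had 22.4, 25.5 and 26.2 in 5×FAD samples and 2973 in WT replicate 2, with no peak in the other WT samples.

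The position given in the lists was checked against RefSeq and GENCODE gene models of the same build. Of the 3455 peaks, 3084 lay within 200 bases of an annotated stop codon, counted along the mRNA. This held for 2745 of 2748 peaks listed under a curated RefSeq mRNA, for 191 of 266 listed under an Ensembl transcript and for 148 of 441 listed under a UCSC gene model. The label therefore fits the curated models nearly without exception and the UCSC models in the minority. The regions of Grin1 and Map2 are among the 148 regions with no annotated stop codon within 200 bases. The share of peaks that could be placed was 88.2% ± 0.151 in 5×FAD and 90.3% ± 0.306 in WT (SD, n = 3 each).

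The placed peaks lay around the stop codon with similar cover in both genotypes. They covered the stop codon itself in 57.4% ± 0.561 of cases in 5×FAD and 57.1% ± 1.67 in WT (SD, n = 3 each). Peaks wholly on the coding side made up 24.0% ± 1.39 in 5×FAD and 22.6% ± 1.03 in WT, and peaks wholly in the 3′ untranslated region 18.5% ± 0.985 in 5×FAD and 20.3% ± 1.31 in WT. Coding bases were 42.4% ± 0.580 of the exonic bases under the peaks in 5×FAD and 43.3% ± 1.59 in WT, within the spread of the samples (two-sided exact permutation test, p = 0.4). At 100 bases before the end of the stop codon, 49.3% ± 0.449 of the 5×FAD peaks and 47.8% ± 0.521 of the WT peaks covered the mRNA. At 200 bases after it these shares were 40.4% ± 0.861 in 5×FAD and 38.5% ± 1.18 in WT, so the cover fell off more slowly into the untranslated region than into the coding sequence, where 25.4% ± 0.152 and 24.8% ± 0.759 remained in 5×FAD and WT at 200 bases.

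**Figure D2:**
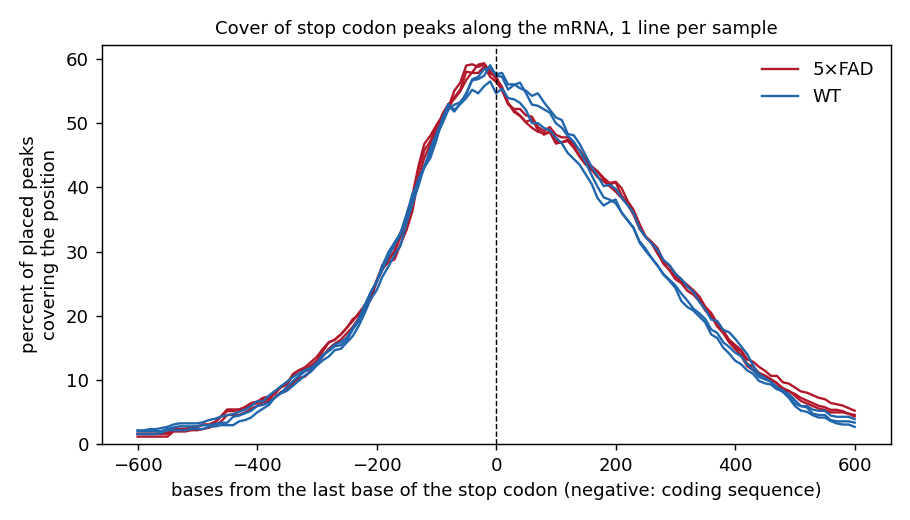
Percent of placed stop codon peaks (vertical axis) that cover each position along the mRNA, in bases from the last base of the stop codon (horizontal axis, negative in the coding sequence), with 1 red line per 5×FAD sample and 1 blue line per WT sample. At position 0 the cover was 56.9% in 5×FAD and 56.6% in WT on average, and the 6 lines run close together on both sides.

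Median peak length was 279, 279 and 278 bp in 5×FAD and 284, 281 and 276 bp in WT (two-sided exact permutation test, p = 0.7). GC content averaged 52.0% ± 0.206 in 5×FAD and 52.0% ± 0.367 in WT (p = 0.8 by the same exact test). Neither measure separated the genotypes. The stop codon by which a peak was placed, within 200 bases and not always covered by it, was TGA in 52.5% ± 0.493 of the 5×FAD peaks and 49.6% ± 0.788 of the WT peaks. TAG made up 24.7% ± 0.676 in 5×FAD and 27.4% ± 0.975 in WT, and TAA 22.8% ± 0.985 in 5×FAD and 23.0% ± 0.876 in WT. Over 1 RefSeq mRNA per gene, 20996 in all, TGA ends 49.5%, TAG 22.8% and TAA 27.7%. With each of the 975 placed regions called in either genotype counted once, TAA made up 22.7%. TAA was thus rarer at the stop codons of the placed peaks of both genotypes than over all mRNAs, a description with no test.

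Cytidines spaced by 2 other bases have been described around ac4C in human cells. The motif CNNCNNCNNCNNCNN, read on the mRNA's strand alone in the 100 genomic bases at the centre of a region, was present in 205 of 975 placed stop codon regions called in either genotype, or 21.03%. Its share was 20.7% for regions of 5×FAD alone, 22.01% for regions of WT alone and 17.3% for regions of both. The 100 bases around the stop codons of 20996 RefSeq mRNAs held it in 12.9%. Cytidine made up 27.0% of the bases in the region windows and 24.8% in the windows around all stop codons. The region windows are centred on the peak and not on the stop codon, and the part of base composition in the difference was not tested.

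Stop codon peaks differed from the other listed peaks of the same samples in several ways. Their median length of 279 bp ± 2.52 compared with 130 bp ± 1.96 for all other peaks (SD over 6 samples), and they were longer in 6 of 6 samples. Against 3′ untranslated region peaks alone they were 30.3 bp shorter, shorter in each sample. Their median log2 FE was 0.35 below that of the other peaks, lower in each of 6 samples, but 0.10 above that of 3′ untranslated region peaks, so that they lay between coding sequence and 3′ untranslated region peaks. GC content was 1.01 percentage points below all other peaks and 4.48 points above 3′ untranslated region peaks. Each of the 4 differences from all other peaks, that in overlap below among them, had p = 0.03125 in a two-sided exact sign-flip permutation test over 6 samples, the smallest that 6 samples allow, and the same value after Benjamini-Hochberg adjustment over the 4.

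A stop codon peak was more often matched by a peak of the other genotype than a peak elsewhere. Of the stop codon peaks, 18.1%, 18.9% and 20.8% in 5×FAD samples overlapped a WT peak, and 18.5%, 18.02% and 19.5% in WT samples overlapped a 5×FAD peak. For the other peaks these shares were 14.7% to 14.9% in 5×FAD and 14.0% to 14.4% in WT. The difference was 4.43 percentage points ± 0.897 (SD over 6 samples), the same way in 6 of 6 samples (exact sign-flip permutation test, p = 0.03125). Against 3′ untranslated region peaks alone, the difference was 4.31 points (p = 0.03125 by the same exact test). Peak length also differed between the positions, as given above, and its part in the overlap was not tested.

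Even so, most stop codon regions belonged to 1 genotype. A genotype counted as carrying a region if 2 or 3 of its samples listed a peak in it, and 1095 of the 1324 regions were called in either in this sense. Of these, 486 (44.4%) were called in 5×FAD alone, 520 (47.5%) in WT alone and 89 (8.13%) in both. Over the 7941 regions of all positions called in either genotype, 43.0% were called in 5×FAD alone, 50.9% in WT alone and 6.18% in both. The 89 shared regions are 15.5% of the stop codon regions called in 5×FAD and 14.6% of those called in WT. Most calls in 1 genotype were clear-cut, at stop codons as over all positions. Of the 486 regions of 5×FAD alone, 473 lacked a peak in each WT sample. Of the 520 regions of WT alone, 495 lacked one in each 5×FAD sample. Over all positions this held for 3326 of 3412 regions of 5×FAD alone and 3863 of 4038 of WT alone. Peaks in all 3 samples of 1 genotype and none of the other were found in 325 regions of 5×FAD and 339 of WT, out of 1095. Over all positions they were found in 2422 and 2770 of 7941 regions. A peak of another position in the other genotype lay over 6 regions of 5×FAD alone and 2 of WT alone, so the peak missing in the other genotype was rarely listed under another position.

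Samples of 1 genotype shared most of their stop codon regions and samples of different genotypes few. The share of regions with a peak in both samples among those with a peak in either was 0.684 ± 0.0132 for the 6 pairs of samples within a genotype and 0.0788 ± 0.00505 for the 9 pairs between genotypes (mean ± SD over pairs, which share samples). For regions of the other positions it was 0.713 ± 0.0197 within and 0.0585 ± 0.00165 between. Peaks whose ends matched to the base made up 40.0% to 51.2% of the shorter list within a genotype and 2.48% to 4.20% between genotypes. Where all 3 samples of a genotype had a peak, FE was close among them, with a median coefficient of variation of 19.7% over 398 regions in 5×FAD and 14.7% over 413 regions in WT. No label gives the batch or day of the libraries, so a batch that coincides with genotype cannot be told apart from genotype here.

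At the level of mRNAs, 100 had stop codon peaks in at least 2 samples of both genotypes, 458 in 5×FAD alone and 500 in WT alone. The 100 were 9.45% of 1058 mRNAs. With peaks of any position counted, 1121 of 4493 mRNAs (24.9%) were in both genotypes. Of the 458, 113 (24.7%) carried a peak of any position in at least 2 WT samples, and of the 500, 137 (27.4%) did so in 5×FAD. Of all mRNAs with a peak of any position in 5×FAD, 41.9% also had one in WT, and 38.2% the other way round. Unlike the 458 and 500, these shares include mRNAs with stop codon peaks in both genotypes. Of the 100 mRNAs, 11 had their stop codon peaks in different regions. Arpp21, a cAMP-regulated phosphoprotein of neurons, had 102, 105 and 94.0 in 5×FAD samples at chr9:112116716-112116767 with no WT peak there, and no 5×FAD peak but 12.5, 13.8 and 11.96 in WT samples at chr9:112065638-112065918. Chd6, a chromatin remodeller, Dhx33, an RNA helicase, and Gnao1, a G protein subunit abundant in neurons, were others of the 11. A further peak of another position lay on the same mRNA in the same sample for 35.5% ± 1.59 of the stop codon mRNAs of 5×FAD and 37.1% ± 1.55 of those of WT (SD, n = 3 each), most often in the coding sequence.

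FE was compared between genotypes in the regions called in both, with limma on log2(FE + 1) over 491 such regions of all positions. A region was called with a 2-fold or larger difference and a Benjamini-Hochberg adjusted p below 0.05. A log2 difference on this scale is 5×FAD minus WT and understates the change of low values. Of the 89 stop codon regions, 15 (16.9%) were higher and 34 (38.2%) lower in 5×FAD, and 40 were not called. Over all 491 regions 16.1% were higher and 40.3% lower, so stop codon regions were called about as often as the rest. The median log2 difference was -1.02 over the 89 stop codon regions and -1.75 over all 491. The balance of higher and lower calls rests on the scale of FE. The median of log2(FE + 1) over the 491 regions averaged 3.19 in 5×FAD samples and 5.19 in WT samples, a difference of -1.99. With each sample centred on its own median, 32 stop codon regions were higher and 21 lower, and over all 491 regions 142 were higher and 146 lower. The 15 higher calls and 21 of the 34 lower calls held under this centring, 13 lower calls were lost, and 17 regions not called became higher. The 13 lost calls were those with the smallest differences apart from Dnmt3a, on Gm20594, Tubb2b, Nefl, Dbn1, Dlgap4, Phf3, Caln1, Smarcd1, Dynll1, Scg5, Gfap, Scd2 and Hpcal4. FE did not overlap between the genotypes in 61 of the 89 regions (68.5%), against 68.2% of all 491.

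**Figure D3:**
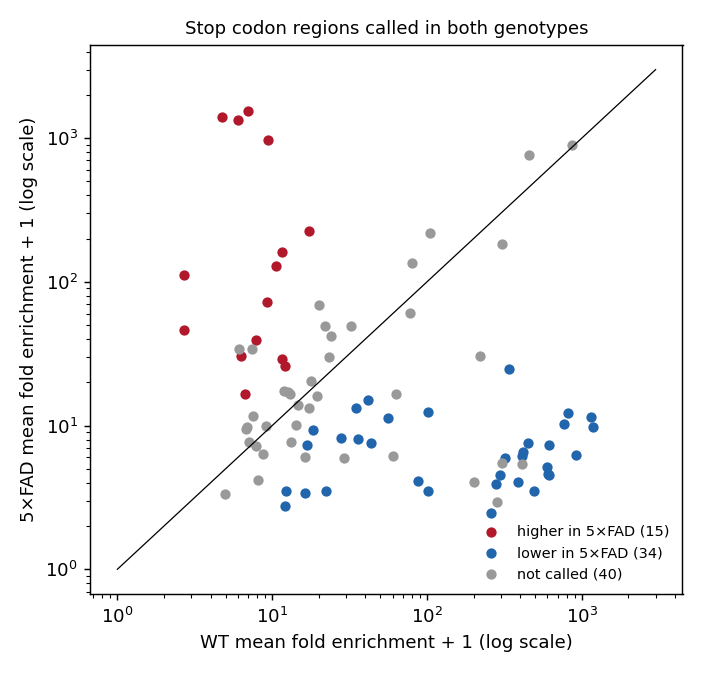
Mean FE + 1 in 3 5×FAD samples (vertical, log scale) against 3 WT samples (horizontal, log scale) for the 89 stop codon regions called in both genotypes, with the line of equality. The 15 regions higher in 5×FAD are red, the 34 lower blue and the 40 not called grey. Many points lie far from the line, and the 4 highest red points have mean FE of 970 to 1552 in 5×FAD and 3.74 to 8.38 in WT.

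The regions most strongly raised in 5×FAD had FE of 885 to 2121 in 5×FAD samples, against values of 0 to 14.7 in WT samples. Tmem37 encodes a transmembrane protein related to calcium channel gamma subunits, and its region at chr1:120067377-120067622, 88 to 333 bases past the stop codon, had 1294, 1566 and 1322 in 5×FAD samples, against 5.88, 0 and 5.33 in WT samples. The log2 difference was 8.63 ± 0.83 (SE, limma adjusted p = 0.0005). Ccl7, a chemokine that attracts monocytes, had 1248, 1497 and 1286 in 5×FAD samples, against 6.91, 0 and 8.12 in WT samples (chr11:82047107-82047322). Its log2 difference was 8.33 ± 0.94 (SE, limma adjusted p = 0.00084).

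A pair of neighbouring S100 genes on chromosome 3 was raised together, with 37954 bases between their regions. S100a10 encodes the annexin A2 partner p11, and its region over the stop codon (chr3:93564243-93564607) had 1255, 1280 and 2121 in 5×FAD samples, against 7.35, 6.25 and 4.42 in WT samples, a log2 difference of 7.77 ± 0.32 (SE, limma adjusted p = 1.5e-05). S100a11, a calcium-binding protein of the same family, had 885, 1067 and 959 in 5×FAD samples, against 0, 10.4 and 14.7 in WT samples (chr3:93525992-93526288), a log2 difference of 7.42 ± 1.13 (SE, limma adjusted p = 0.0027). Both regions run across the stop codon, by 155 to 161 bases before it and 141 to 203 bases past it.

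Further regions raised in 5×FAD were of moderate strength. Vps26a, a subunit of the retromer that returns cargo from endosomes, had 67.7, 110 and 156 in 5×FAD samples, against 2.64, 0 and 2.44 in WT samples, all on the coding side (log2 difference 5.51 ± 0.64, SE). Hiat1 had 40.4, 43.1 and 52.4 in 5×FAD samples, against 1.75, 1.6 and 1.7 in WT samples (4.10 ± 0.19, SE). Ttc7b, part of the complex that brings phosphatidylinositol 4-kinase to the plasma membrane, had 145, 173 and 163 in 5×FAD samples, against 11.6, 9.22 and 10.9 in WT samples (log2 difference 3.80 ± 0.19, SE). Each of these 3 was picked among calls without overlap of the genotypes. Asph, an aspartyl beta-hydroxylase, had 134, 135 and 114 in 5×FAD samples, against 14.1, 14.9 and 0 in WT samples, and its call (limma adjusted p = 0.025) was lost when any 1 of the 5×FAD samples was left out (limma adjusted p 0.0600 to 0.0677). The other 7 higher regions were those of Lhfpl2, Syngr3, Trak2, Ctxn1, Arhgdia, AK086290 and Sirpa, with log2 differences of 1.09 to 3.72. Among them Syngr3, a synaptic vesicle protein, had 60.9, 79.9 and 72.4 in 5×FAD samples, against 8.99, 9.17 and 6.78 in WT samples.

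**Figure D4:**
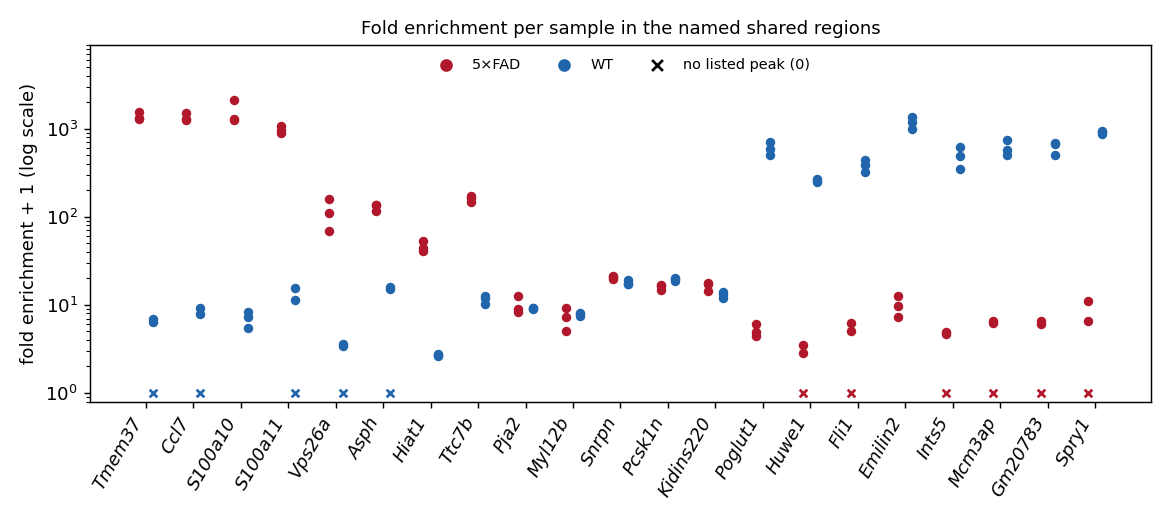
FE + 1 per sample on a log scale for 21 stop codon regions called in both genotypes, with 5×FAD in red left of WT in blue for each gene. A cross marks a sample with no listed peak. From the left stand 8 regions higher in 5×FAD, 5 of the least difference among those with a peak in all 6 samples, and 8 lower in 5×FAD. S100a10 shows 1255 to 2121 in 5×FAD above 4.42 to 7.35 in WT, and Emilin2 6.30 to 11.5 in 5×FAD below 985 to 1363 in WT.

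The regions most strongly lowered in 5×FAD showed the same contrast the other way round. Spry1, an inhibitor of receptor tyrosine kinase signalling, had 5.60, 0 and 10.2 in 5×FAD samples, against 926, 877 and 935 in WT samples (chr3:37643524-37643840), a log2 difference of -7.77 ± 0.96 (SE, limma adjusted p = 0.0012). The region begins 27 bases before the last base of the stop codon and ends 289 bases past it. Emilin2, an extracellular matrix glycoprotein, had 6.30, 8.60 and 11.5 in 5×FAD samples, against 985, 1205 and 1363 in WT samples (chr17:71252632-71252847), a log2 difference of -6.94 ± 0.28 (SE, limma adjusted p = 1.5e-05). Poglut1, which adds O-linked glucose to Notch, had 3.48, 3.87 and 5.05 in 5×FAD samples, against 504, 585 and 707 in WT samples. Values without overlap between the genotypes were a condition for naming these 3 regions, so the gap adds no support.

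Other regions lowered in 5×FAD lay on Mcm3ap, Ints5, Fli1 and Kmt2b. Mcm3ap, a germinal-centre associated nuclear protein of mRNA export, had 0, 5.15 and 5.59 in 5×FAD samples, against 502, 735 and 575 in WT samples. Ints5, a subunit of the Integrator complex that processes small nuclear RNAs, had 0, 3.91 and 3.69 in 5×FAD samples, against 491, 625 and 351 in WT samples, on the coding side. Fli1, an ETS transcription factor, had 5.24, 3.99 and 0 in 5×FAD samples, against 386, 445 and 324 in WT samples. Each of the 3 had 1 5×FAD sample with no listed peak, and all fell with log2 differences of -7.44 to -6.93 (limma adjusted p 0.00053 to 0.00081). Kmt2b, a histone H3 lysine methyltransferase, had a peak in all 6 samples, with 3.70, 3.23 and 3.58 in 5×FAD samples, against 278, 308 and 297 in WT samples (log2 difference -6.03 ± 0.17, SE). Dnmt3a, a DNA methyltransferase, had 16.0, 15.4 and 40.3 in 5×FAD samples, against 311, 358 and 340 in WT samples. Huwe1, a ubiquitin ligase, and Gm20783 also fell, but their regions lie away from an annotated stop codon.

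Smaller differences were seen on Nefl, Dbn1 and Gfap. Nefl, the neurofilament light chain, had 3.41, 4.04 and 0 in 5×FAD samples, against 20.5, 22.6 and 20.8 in WT samples (log2 difference -2.98 ± 0.69, SE). Dbn1, drebrin of dendritic spines, had 3.82, 3.36 and 0 in 5×FAD samples, against 15.9, 17.3 and 12.6 in WT samples. Both were lower in each 5×FAD sample. Gfap, the intermediate filament of astrocytes, had 9.16, 18.6 and 14.7 in 5×FAD samples, against 39.4, 42.8 and 39.8 in WT samples (log2 difference -1.51 ± 0.30, SE, limma adjusted p = 0.0077). With samples centred on their medians none of these 3 was called, with differences of -0.99 for Nefl (limma adjusted p = 0.33), -0.55 for Dbn1 (adjusted p = 0.57) and 0.49 for Gfap (adjusted p = 0.43), while Spry1, Mcm3ap, Ints5, Emilin2, Fli1, Poglut1 and Kmt2b kept their direction and call.

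Among the 44 stop codon regions with a peak in all 6 samples, 12 were higher and 21 lower in 5×FAD in a fit over such regions alone. Of the 240 regions of all positions in that fit, 54 were higher and 128 lower. The 5 with the least difference were those of Pja2, Myl12b, Snrpn, Pcsk1n and Kidins220. Snrpn, an imprinted splicing factor gene of neurons, had 20.1, 19.7 and 18.7 in 5×FAD samples, against 16.2, 16.0 and 18.4 in WT samples, a log2 difference of 0.20 ± 0.17 (SE). Pcsk1n, the inhibitor of prohormone convertase 1, had 13.9, 15.6 and 15.4 in 5×FAD samples, against 19.0, 18.7 and 17.6 in WT samples, a log2 difference of -0.28 ± 0.17 (SE). Neither passed the test (limma adjusted p 0.36 and 0.22). Under centring all 5 were called higher in 5×FAD. Of the 40 regions not called, 27 lacked a peak in at least 1 sample. Cxcl5, a chemokine that attracts neutrophils, is an example, with 1309, 0 and 1357 in 5×FAD samples, against 832, 911 and 845 in WT samples.

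Among stop codon regions with a peak in all 3 5×FAD samples and no listed peak in WT, those of Pvrl2, Atp6v0c, Klhl30 and Olfr472 had the highest mean FE. Pvrl2, the cell adhesion molecule nectin-2, had 976, 1194 and 1012 in 5×FAD samples with no listed peak in WT samples (chr7:19717188-19717411, 104 to 327 bases past the stop codon). A region listed under Atp6v0c, a subunit of the proton pump of vesicles, had 677, 716 and 1436, but it lies on chromosome 6 (chr6:37806062-37806772), away from any annotated stop codon. Klhl30, a kelch-like protein, had 1033, 801 and 695 over its stop codon (chr1:91361054-91361298). Olfr472, an olfactory receptor, had 705, 832 and 726 on the coding side. C4bp, a complement regulator, A730061H03Rik, Lamb3, a laminin chain, and Plod3, a collagen lysyl hydroxylase, followed with mean FE of 489 to 692. A peak in all 3 5×FAD samples was a condition for picking these 8, and with no level measured in WT no fold can be given. Olfr1022, another olfactory receptor gene, was higher still, with 2004, 1612 and 1376 in 5×FAD samples, but had 5.6 in WT replicate 2 and no listed peak in the other WT samples, and it was picked out after its values were seen.

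Among regions with a peak in all 3 WT samples and no listed peak in 5×FAD, those of Crtap, Cenpt and Emd had the highest mean FE. Crtap, a subunit of the collagen prolyl 3-hydroxylase complex, had no listed peak in 5×FAD samples and 580, 644 and 584 in WT samples (chr9:114375157-114375407). Cenpt, a protein of the inner kinetochore, had no listed peak in 5×FAD samples and 594, 549 and 621 in WT samples (chr8:105844925-105844995, 53 to 123 bases before the end of the stop codon). Emd, the gene of the inner nuclear membrane protein emerin, had none in 5×FAD samples and 404, 517 and 470 in WT samples (chrX:74260968-74261199). Its stop codon was taken from an Ensembl transcript and not from a RefSeq mRNA. Nova1, a splicing regulator of neurons, had none in 5×FAD samples and 445, 356 and 377 in WT samples. Afap1, Fam57b, Tnpo3 and Trim46 followed, with mean FE of 325 to 386 in WT. The 3 WT values of Crtap and Cenpt lay close together, while Afap1 ranged between 166 and 610.

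The gene lists described next were read by how many of their stop codon regions were called in each genotype, beside the 44.4%, 47.5% and 8.13% in 5×FAD alone, WT alone and both over all 1095 regions. No list was tested. Of the mRNAs of translation termination and nonsense-mediated decay, 3 had a stop codon region. Gspt2, a form of the release factor eRF3, had 28.4, 39.5 and 110 in 5×FAD samples and no listed peak in WT samples. Upf3a, a decay factor, had 15.3, 19.7 and 0 in 5×FAD samples and no listed peak in WT samples. Etf1, which encodes eRF1 itself, had no listed peak in 5×FAD samples and 7.76, 9.52 and 5.86 in WT samples. None of the RNA modification list had a stop codon region, and Nat10 had no listed peak at any position.

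Among Alzheimer disease risk and amyloid processing mRNAs, 3 regions were called in 5×FAD alone and 6 in WT alone. Apoe, the main lipid carrier of the brain, had no listed peak in 5×FAD samples and 27.7, 26.0 and 40.6 in WT samples in 1 region, and a neighbouring region had 6.78 in 5×FAD replicate 1 and no listed peak in any other sample. Apba1, an adaptor that binds APP, had no listed peak in 5×FAD samples and 77.5, 83.7 and 72.4 in WT samples. Clu and Lrp1, a chaperone and a receptor of lipoproteins, were also called in WT alone. Ctsb, a lysosomal protease, had 14.9, 21.9 and 19.6 in 5×FAD samples and no listed peak in WT samples. Ptk2b had a region of each kind, at different places. App and Thy1 had no stop codon region. The transgenes of 5×FAD are human, and whether their reads entered the mouse lists was not tested.

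Many of the regions on ribosomal protein mRNAs were stop codon regions. Of the 52 regions of any position on cytosolic ribosomal protein mRNAs, 20 were stop codon regions (38.5%), and of the 19 on mitochondrial ones 8 (42.1%), against 13.8% over all 7941 regions. These mRNAs are short, and the part of coding length in these shares was not tested. The 20 cytosolic regions divided into 9 of 5×FAD alone and 11 of WT alone, with none in both. Rps25 had 9.23, 16.7 and 13.8 in 5×FAD samples and Rps10 26.3, 28.0 and 26.5 in WT samples, each with no listed peak in the other genotype. Of the 8 mitochondrial regions, 1 was of 5×FAD alone and 7 of WT alone. Mrps21 had 63.0, 72.1 and 58.5 and Mrpl52 78.5, 49.2 and 55.0 in WT samples, and neither had a listed peak in 5×FAD samples. Mrpl41, the 1 region of 5×FAD alone, had 0, 4.28 and 2.59 in 5×FAD samples.

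Translation factors and tRNA synthetases had 4 stop codon regions of 68 regions in all. Eef2, the elongation factor that moves the ribosome along, had 12.3, 19.5 and 15.3 in 5×FAD samples and no listed peak in WT samples. Eif2b1 had 2.48, 6.07 and 4.95 in 5×FAD samples, against 518, 396 and 0 in WT samples, and was not called. Without WT replicate 3, the sample with no peak, its log2 difference was -6.43 and it was called, and Eif3a was called in the same way without WT replicate 1, at -3.90. Both calls rest on leaving out the WT sample whose value went against the difference, so they add no support. Splicing and RNA-binding proteins had 26 stop codon regions, 13 of 5×FAD alone, 12 of WT alone and that of Snrpn in both. Celf2, a splicing regulator of the brain, had 38.7, 46.3 and 46.1 in 5×FAD samples, and Tardbp, the RNA-binding protein TDP-43, had 8.80, 7.85 and 6.93 in WT samples, each with no listed peak in the other genotype.

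Stop codon regions of synaptic mRNAs were mostly called in 1 genotype, as were stop codon regions as a whole, of which 8.13% were in both. Of 10 regions on synaptic vesicle and SNARE mRNAs, 4 were called in 5×FAD alone, 4 in WT alone and 2 in both, with median FE of 5.76 in 5×FAD and 5.19 in WT. Snap25, a SNARE of the plasma membrane, had 3.95, 3.53 and 3.18 in 5×FAD samples and no listed peak in WT samples, while Syt1, the calcium sensor of release, had none in 5×FAD samples and 3.59, 3.20 and 3.12 in WT samples. Syn1, a vesicle phosphoprotein, had 10.8, 0 and 9.13 in 5×FAD samples, against 17.4, 19.1 and 0 in WT samples, and was not called. Of 14 regions on glutamate receptor and postsynaptic scaffold mRNAs, 5 were of 5×FAD alone, 8 of WT alone and 1 was in both. Grik3, a kainate receptor subunit, stood out with 242, 233 and 231 in 5×FAD samples and no listed peak in WT samples. The AMPA receptor subunits divided, as Gria1 had 4.25, 5.24 and 4.36 in 5×FAD samples and none in WT samples, and Gria2 none in 5×FAD samples and 9.68, 10.3 and 8.96 in WT samples. Grin1, the obligatory NMDA receptor subunit, had 0, 10.4 and 0 in 5×FAD samples, against 0, 36.5 and 41.6 in WT samples. Dlgap4, a scaffold protein, had 1.64, 0 and 3.69 in 5×FAD samples, against 10.9, 12.1 and 10.6 in WT samples, and was lower in 5×FAD (log2 difference -2.39 ± 0.60, SE, limma adjusted p = 0.019), a call lost under median centring (-0.40, adjusted p = 0.62).

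The GABA signalling list had 4 stop codon regions, 1 of 5×FAD alone, 2 of WT alone and 1 in both. Ion channels had 11 regions, 7 of 5×FAD alone and 4 of WT alone. Kcnip4, which modulates A-type potassium channels, had 67.0, 59.9 and 59.7 in 5×FAD samples and no listed peak in WT samples. Of the 17 solute carrier regions, 7 were of 5×FAD alone, 9 of WT alone and 1 in both.

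The cytoskeleton and motor list had 6 regions in both genotypes out of 22, of which 4 were lower in 5×FAD, 2 were not called and none was higher. Over all 89 shared stop codon regions 38.2% were lower and 16.9% higher, and 6 regions are too few to set the list apart. Under median centring Map4 and Myo18a were still lower, while Tubb2b (-1.17, limma adjusted p = 0.41) and Nefl lost their calls. Map4, a microtubule-associated protein, had 3.59, 2.70 and 3.00 in 5×FAD samples, against 89.4, 88.4 and 80.8 in WT samples (log2 difference -4.42 ± 0.18, SE). Tubb2b, a neuronal beta-tubulin, had 7.95, 11.9 and 0 in 5×FAD samples, against 45.2, 42.2 and 41.0 in WT samples. Myo18a, an unconventional myosin, had 9.33, 9.65 and 8.93 in 5×FAD samples, against 815, 772 and 728 in WT samples, in a region away from an annotated stop codon. At its annotated stop codon Myo18a had 270, 225 and 166 in 5×FAD samples and no listed peak in WT samples. Nefl, described above, was the other of the 4. Dync1i1, an intermediate chain of dynein, had 33.9, 53.9 and 54.7 in 5×FAD samples and Tuba1a 18.9, 22.1 and 20.1 in WT samples, each with no listed peak in the other genotype. Map2 had a single weak stop codon peak, of 2.78 in WT replicate 2.

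The ubiquitin and proteasome list had 26 stop codon regions, 15 of 5×FAD alone, 11 of WT alone and none in both. Fbxw7, a substrate receptor of an SCF ubiquitin ligase, had 101, 79.7 and 91.5 in 5×FAD samples and no listed peak in WT samples. Trim46, which organises microtubules at the axon's start, had none in 5×FAD samples and 326, 269 and 379 in WT samples. Of 9 chaperone regions, 2 were of 5×FAD alone and 7 of WT alone. Hspa5, the chaperone BiP of the endoplasmic reticulum, had 25.7, 30.5 and 31.8 in 5×FAD samples and no listed peak in WT samples. Hspb1, a small heat shock protein, had none in 5×FAD samples and 78.8, 81.2 and 65.9 in WT samples. Dnajc6, the auxilin that uncoats clathrin vesicles, had none in 5×FAD samples and 6.31, 5.31 and 7.42 in WT samples.

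Signalling and nuclear lists gave mixed patterns. Kinase and phosphatase mRNAs had 8 regions of 5×FAD alone and 12 of WT alone. Prkar2b, a regulatory subunit of protein kinase A, had 287, 458 and 537 in 5×FAD samples, against 0, 0 and 1.92 in WT samples. Ppp2r5b, a regulatory subunit of protein phosphatase 2A, had 247, 392 and 294 in 5×FAD samples and no listed peak in WT samples. Small GTPase regulators had 8 regions of 5×FAD alone, 11 of WT alone and 2 in both, among them Tiam1, an exchange factor for Rac, with none in 5×FAD samples and 48.5, 60.1 and 54.5 in WT samples. Histone and chromatin mRNAs had 10 of 5×FAD alone, 6 of WT alone and 2 in both, Kmt2b and Smarcd1, which were both lower in 5×FAD. Smarcd1 lost its call under median centring (-0.11, limma adjusted p = 0.90). Zinc finger mRNAs had 6 of 5×FAD alone and 5 of WT alone. Zbtb5 had 0, 0 and 5.19 in 5×FAD samples, against 508, 702 and 625 in WT samples, and Zfp131 277, 208 and 196 in 5×FAD samples, against 1.68, 0 and 0 in WT samples. Of 9 oxidative phosphorylation regions, 5 were of 5×FAD alone, 3 of WT alone and that of Ndufa10, a complex I subunit, was in both, with 5.82, 6.28 and 13.3 in 5×FAD samples and 6, 5.86 and 5.6 in WT samples. It was not called, and was called higher under median centring (2.38). Of the immediate early genes, Ier2 had 44.8, 52.6 and 43.1 in 5×FAD samples and Nr4a3 60.3, 64.9 and 65.1 in WT samples, each with no listed peak in the other genotype.

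**Figure D5:**
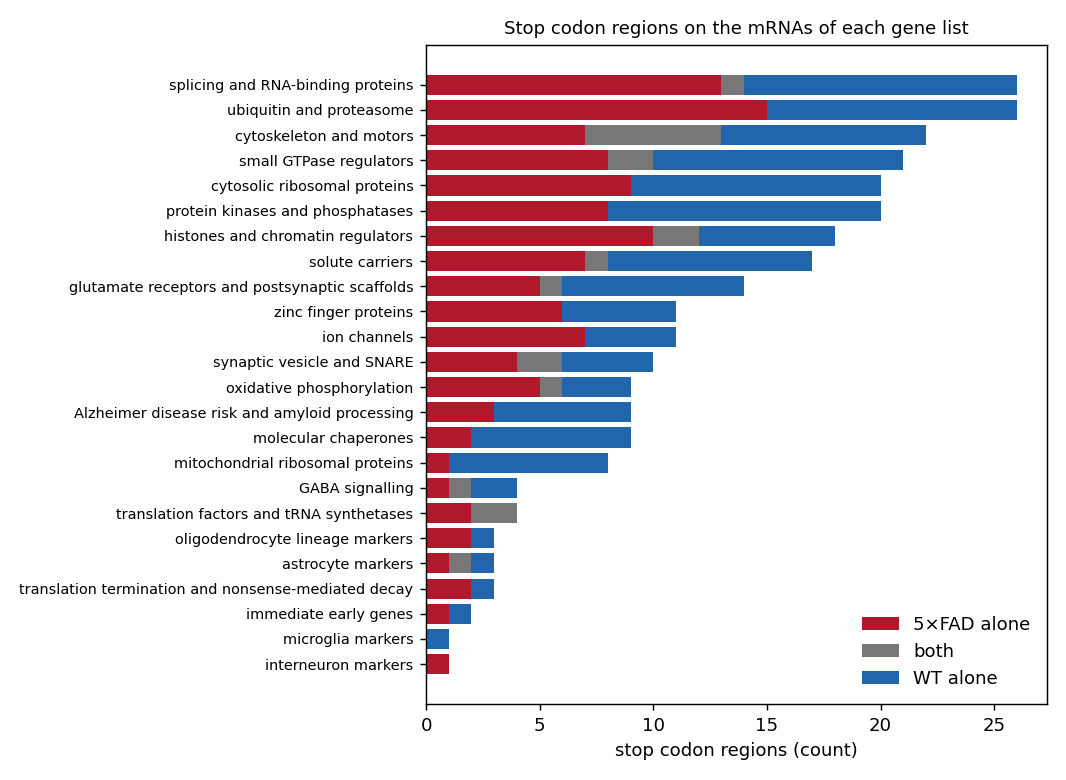
Number of stop codon regions (horizontal axis) called in 5×FAD alone (red), in both genotypes (grey) and in WT alone (blue) for each gene list with at least 1 such region (vertical axis). The cytoskeleton and motor list has the most regions in both genotypes, 6 of 22, and the mitochondrial ribosomal protein list has 1 region of 5×FAD alone and 7 of WT alone.

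The cell type marker lists are small. Stop codon regions were 3 of 21 regions on astrocyte markers (14.3%) and 3 of 23 on oligodendrocyte lineage markers (13.0%). They were 1 of 9 on interneuron markers and 1 of 4 on microglia markers, against 13.8% over all 7941 regions. Of the astrocyte list, Slc1a2, the main glutamate transporter, had 4.56, 3.74 and 3.11 in 5×FAD samples and no listed peak in WT samples, Aqp4, the water channel, none in 5×FAD samples and 64.5, 69.0 and 47.1 in WT samples, and Gfap had the values given above. Of the oligodendrocyte lineage, Mag had 4.85, 7.64 and 7.52 in 5×FAD samples and none in WT samples, and Cspg4 none in 5×FAD samples and 12.3, 9.93 and 9.42 in WT samples. Mbp had 3.37, 3.34 and 3.52 in 5×FAD samples and none in WT samples in 1 region, and 4.8 in WT replicate 2 alone in another. C1qc of the microglia list had none in 5×FAD samples and 0, 24.9 and 21.2 in WT samples. Kcnc1 of the interneuron list had 10.4, 0 and 8.53 in 5×FAD samples. No excitatory neuron, endothelial or mural marker had a stop codon region, out of 16 regions on the first list and 6 on the endothelial and mural list. In bulk tissue, fewer cells of a type cannot be told apart from less ac4C or less RNA per cell.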

How the data were processed

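The 6 acRIP peak lists were analysed, and the 12 input and IgG libraries were not used on their own here. The authors aligned reads to mm10 with HISAT2 2.04 after cutadapt 1.9.3, per the submitters' processing notes, and called peaks per sample with MACS against the input, without its shift model, per the methods. The fold enrichment is the authors' ratio, as deposited. The score is the authors' -10 log10 p, as deposited, and stands at 3100 or more in 53.5% of the stop codon peaks of 5×FAD and 53.9% of those of WT. The FDR column is the authors' value in percent, as deposited. Cells that a spreadsheet had turned into dates were decoded. There were 0 columns of another sample.

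Regions were merged within each listed position, with the FE of a region the sum over its peaks. Values per sample were compared by exact permutation tests, stop codon and other peaks by exact sign-flip tests over samples, and shared regions by limma 3.58.1 (R 4.3.3) on log2(FE + 1), with a filter to regions called in both genotypes. limma was tested on simulated data. Stop codons came from RefSeq and GENCODE models of GRCm38, the same build as mm10. Named regions are the 8 with the largest log2 difference in each direction among those called without overlap, the 8 of highest mean FE in all 3 samples of 1 genotype alone, the 5 of least difference with a peak in all 6, up to 4 per gene list, and Grin1, Map2, Dnajc6, App, Thy1 and Nat10. Some results that this rule picks are not reported here. Other regions were named after their values were seen. The peaks, the 27 gene lists and the tests were chosen with earlier results of these data known. Peak calling was not stated to use strand, so overlapping genes on opposite strands cannot be told apart.

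Alternatives were a minimum FE of 5, each sample left out in turn, 50% reciprocal overlap or identical ends, a peak in all 3 samples, merging across positions, pseudocounts of 0.1 and 10, a mean FE of at least 10, the highest FE of a region, median centring, a replicate block, trend and robust variance, and all regions called in either genotype. Comparisons of overlap, GC content and length with single positions, regions within 200 bases of an annotated stop codon and regions with a peak in all 6 samples were added after seeing the data.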

Additional observations from a re-analysis of the deposited data

How the results depend on the processing

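The counts of regions in 1 genotype stayed within 1.5 times under every alternative run. Regions in both genotypes numbered 44 with a peak asked of all 3 samples and 14 with identical ends, against 89, and mRNAs in both 48, against 100. Lower calls numbered 19 of 64 regions tested with an FE of at least 5 and 21 of 44 regions with a peak in all 6 samples, against 34 of 89. Median centring gave 32 higher and 21 lower. A fit over all regions called in either genotype, where absent peaks count as 0, gave 347 higher and 381 lower of 1095 stop codon regions. Over all positions this fit gave 2540 higher and 3055 lower of 7941 regions. Of the 1095 regions, 486 entered this fit as called in 5×FAD alone and 520 as called in WT alone. Their direction was set by that choice, so the counts of this fit add no support. The replicate numbers did not pair the samples, with correlations of -0.0077, -0.13 and -0.069 for equal numbers and up to 0.20 for unequal ones. With the replicate block 14 stop codon regions were higher and 28 lower. Leaving out 1 sample gave 11 to 15 higher and 24 to 33 lower regions, 71 to 74 regions in both genotypes, and 78 to 83 mRNAs in both.

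The genotype differences in length and GC content, neither called, turned sign at an FE of at least 5 (1.67 bp and -0.0593 points) and ranged over -3.33 to 0.42 bp and -0.080 to 0.28 points without 1 sample. Differences from other peaks kept their direction without 1 sample, at 147.4 to 149.5 bp, -0.37 to -0.34 in log2 FE, 3.62 to 4.77 points in overlap and -1.11 to -0.88 points in GC content, but 5 samples allow no p under 0.0625. Against 3′ untranslated region peaks alone 3 of them turned sign, to 0.10 in log2 FE, -30.3 bp and 4.48 points of GC content.

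Of 445 checks of 30 shared regions picked by the naming rule, 425 changed neither direction nor call. The rule favours the largest differences, and the 30 leave out Nefl, Dbn1, Tubb2b, Dlgap4 and Smarcd1, which lost their calls under centring. Over all 89 stop codon regions, centring lost 13 lower calls and turned 17 regions not called to higher. Centring turned Myl12b to 1.83, Pcsk1n to 1.71, Syn1 to 1.45, Rapgef4 to 0.039, Eif3a to 0.26 and Gfap to 0.49. Without 1 sample, log2 differences ranged over -0.068 to 0.22 for Pja2, -0.37 to 0.072 for Myl12b, -1.96 to 0.61 for Syn1, -2.04 to 0.21 for Rapgef4 and -0.58 to 3.15 for Rab1, none of them called. The lists give no depth, and FE is not scaled between samples.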

Other observations

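The 229 stop codon regions called in neither genotype were 222 with a peak in a single sample and 7 with a peak in 1 sample of each genotype. Some of these peaks were strong. Rnpep, an aminopeptidase gene, had an FE of 655 in 5×FAD replicate 3 and no listed peak in any other sample. Mybbp1a, a nucleolar protein gene, had 581 in WT replicate 3 alone. Ets2, a transcription factor gene, had 2.73 in 5×FAD replicate 3 and 506 in WT replicate 3, with no listed peak in the other samples. These regions were in no comparison, and they were named after their values were seen.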
